A study of Mus musculus with 23 samples.

Results

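Endothelial genes, 33 in all, were followed in RNA of isolated cortical astrocytes. The members were the rows of the count table with the symbols of genes known from the cells that line blood vessels. They were taken by name, but the set was chosen with earlier results of these data known. All 33 of 33 were among the 24411 symbols of the table and all 33 passed every filter on low counts. They fall into 9 genes of junctions and adhesion (Cldn5, Ocln, Pecam1, Cdh5, Esam, Icam2, Cd34, Emcn and Podxl), 8 receptors and a receptor phosphatase among them (Flt1, Kdr, Tek, Tie1, Eng, Robo4, Ptprb and Ramp2), 5 transcription factors (Erg, Fli1, Ets1, Sox17 and Sox18), 4 secreted proteins (Vwf, Egfl7, Mmrn2 and Pglyrp1), 2 surface proteins of the Ly6 family (Ly6c1 and Ly6a) and 5 others (Nos3, Rasip1, Sh2d3c, Slco2a1 and Itm2a).

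Endothelial cells form the inner wall of blood vessels. In the brain they are sealed by tight junctions into the blood-brain barrier, and the end feet of astrocytes cover nearly the whole outer face of the capillaries. Astrocytes secrete factors such as VEGFA that act on endothelial receptors, so vessels and astrocytes are neighbours in tissue and hard to part completely when it is dissociated.

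Astrocytes were drawn from the cerebral cortex of male mice at postnatal day 70 with magnetic beads against ACSA-2, an astrocyte surface antigen (MACS), and 23 libraries of polyadenylated RNA were sequenced. By the study's methods, n for RNA-seq counts animals. All mice carried floxed Aldh7a1 on both alleles (Aldh7a1 flox/flox), and 4-hydroxytamoxifen was given at postnatal days 3 to 4. ALDH7A1 is an enzyme that oxidises aldehydes. ConAstro mice (4 libraries) lacked Cre, whereas cKOAstro mice (7 libraries) carried tamoxifen-inducible CreER at 1 allele of Slc1a3, a glutamate transporter gene of astrocytes and their precursors. The mice of the groups SFN-fed ConAstro (5 libraries) and SFN-fed cKOAstro (7 libraries) were fed sulforaphane (SFN), which activates the antioxidant regulator NRF2, from postnatal day 21, and the other groups a control diet. Cre was therefore meant for the astrocyte lineage and not for endothelium, and 1 copy of Slc1a3 carried the insertion in every cKOAstro mouse but in no ConAstro mouse.

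Counts per library summed to between 46890715 and 391701247, with the highest totals in cKOAstro (107847897 to 391701247) and lower ones in ConAstro (74771451 to 84049525), so depth differed between genotypes on the control diet. By the level of Aldh7a1 itself, 2 libraries went against their genotype labels. Replicate 1 of those labelled SFN-fed ConAstro was at 55.7 CPM (counts scaled to effective library size), while the other 4 of its group were at 177 to 226. Replicate 2 of those labelled SFN-fed cKOAstro was at 222 CPM, and the other 6 of its group at 43.0 to 56.5. ConAstro libraries held 207 to 220 CPM and cKOAstro libraries 45.9 to 77.2. A further library, cKOAstro replicate 2, went against the label of male mice, with 1541 CPM of Xist and 0.00770 CPM of Ddx3y. The names of 6 libraries begin with Astro and those of 17 with a number (cKOAstro replicates 2 and 4, SFN-fed ConAstro replicate 1 and SFN-fed cKOAstro replicates 4, 5 and 6 are the Astro-named ones). The labels do not say what this marks. All 4 ConAstro libraries share a name prefix (143) that occurs in neither the cKOAstro nor the SFN-fed ConAstro group, so prefix and group cannot be told apart in those comparisons.

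Markers of astrocytes (10 genes) summed to 14093 to 25957 CPM per library. Markers of oligodendrocytes (8 genes), the cells that make myelin, summed to 21668 to 56204 CPM, so the libraries held RNA of other cells as well. The 33 endothelial genes took 0.0529% to 0.175% of all counts, 549 to 1766 CPM in all. In bulk RNA, fewer endothelial cells and less of these RNAs per cell cannot be told apart.

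Scaled to the length of their exons, the members spanned a wide range of levels. Cldn5, which encodes the main claudin of the tight junctions of the blood-brain barrier, was the most abundant with a median of 41.1 CPM per kb of exon over the 23 libraries. Itm2a, a membrane protein gene, followed at 24.9 CPM per kb. The Ly6 genes Ly6a and Ly6c1 stood at 18.2 and 18.0 CPM per kb. Eng, encoding endoglin, a co-receptor for TGF-beta family ligands, stood at 13.1 CPM per kb and Esam, an adhesion molecule of tight junctions, at 11.3. The adhesion gene Icam2 had 1.54 CPM per kb. Slco2a1, encoding a prostaglandin transporter, was the lowest at 0.0496 CPM per kb, and its counts in the ConAstro libraries were 50, 39, 41 and 35. Neighbours in this order overlapped widely between libraries, since Itm2a alone ranged from 10.47 to 67.4 CPM per kb and Cldn5 from 20.8 to 92.3.

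**Figure D1:**
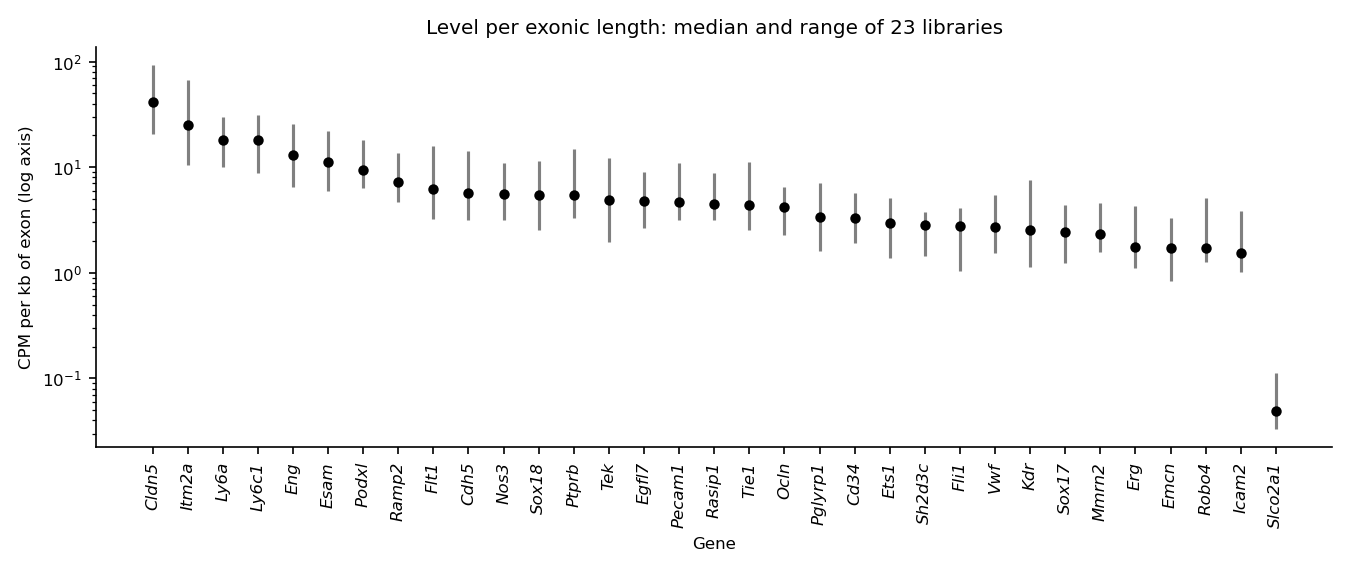
Level of each of the 33 endothelial genes per length, as the median (point) and range (line) of CPM per kb of exon over 23 libraries on a log axis. Cldn5 stands highest at a median of 41.1 and Slco2a1 lowest at 0.0496.

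The members lie on 16 chromosomes of the mouse genome (GRCm38, also called mm10; GENCODE M21 annotation). Cldn5 spans chr16:18776847-18778262 on the plus strand, Pecam1 chr11:106654217-106750628 on the minus strand, Cdh5 chr8:104101625-104144511 on the plus strand, Flt1 chr5:147561604-147726011 on the minus strand and Tek chr4:94739289-94874976 on the plus strand. Sh2d3c lies at chr2:32721055-32755512 and Slco2a1 at chr9:102988712-103096002, both on the plus strand. The deposited values are counts over whole genes. For 7 members over 5% of the 50-base stretches of their exons also occur in another gene, with 34.6% for Rasip1 and 32.8% for Ly6c1, and their counts are uncertain. Ramp2 belongs to these, since 30.7% of its stretches lie in exons it shares with Vps25 on the same strand. Vps25 itself held 37.8 to 51.8 CPM. Exons of 8 members overlap a gene on the opposite strand, Sh2d3c, Slco2a1, Eng and Nos3 among them, and whether counting used the strand is not given in the sources used here.

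The stretch before the start of 5 members is shown as a description. The members moved together across libraries, but whether they share regulation was not tested. ETS factors, the family of the members Erg, Fli1 and Ets1, bind DNA around the letters GGAA, and capitals mark the letters AGGAAG, as well as CGGAAG and the reverse complement of each. The sequences are the 250 bases before the start in RefSeq's GRCm38.p6, written 5′ to 3′ on the gene's own strand, and these 5 were taken because no annotated exon overlaps them and the genes carry results described here.
Flt1, a receptor for VEGF (chr5:147726012-147726261, minus strand): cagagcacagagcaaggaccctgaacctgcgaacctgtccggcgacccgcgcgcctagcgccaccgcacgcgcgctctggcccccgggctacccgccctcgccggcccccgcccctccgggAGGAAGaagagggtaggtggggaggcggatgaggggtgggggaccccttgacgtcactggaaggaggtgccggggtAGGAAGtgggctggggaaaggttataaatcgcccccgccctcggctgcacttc
Eng, the co-receptor endoglin (chr2:32646345-32646594, plus strand): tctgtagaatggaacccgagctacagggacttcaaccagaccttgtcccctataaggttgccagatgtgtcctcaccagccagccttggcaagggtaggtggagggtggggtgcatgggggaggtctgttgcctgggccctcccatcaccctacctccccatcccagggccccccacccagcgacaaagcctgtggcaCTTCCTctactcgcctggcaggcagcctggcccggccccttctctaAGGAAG
Tek, the receptor of angiopoietins (chr4:94739039-94739288, plus strand): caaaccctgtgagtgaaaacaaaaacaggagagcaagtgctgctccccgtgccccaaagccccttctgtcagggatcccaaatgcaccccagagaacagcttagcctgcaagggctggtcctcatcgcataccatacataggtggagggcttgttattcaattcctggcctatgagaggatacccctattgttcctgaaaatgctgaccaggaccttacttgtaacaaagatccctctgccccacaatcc
Cldn5, claudin-5 (chr16:18776597-18776846, plus strand): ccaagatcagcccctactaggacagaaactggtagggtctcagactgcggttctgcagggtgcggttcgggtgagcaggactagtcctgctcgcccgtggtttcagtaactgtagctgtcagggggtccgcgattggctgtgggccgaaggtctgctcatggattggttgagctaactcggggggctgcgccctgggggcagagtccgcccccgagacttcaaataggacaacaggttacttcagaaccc
Sh2d3c, an adaptor protein of receptor signalling (chr2:32727439-32727688, plus strand, a start inside the annotated gene span): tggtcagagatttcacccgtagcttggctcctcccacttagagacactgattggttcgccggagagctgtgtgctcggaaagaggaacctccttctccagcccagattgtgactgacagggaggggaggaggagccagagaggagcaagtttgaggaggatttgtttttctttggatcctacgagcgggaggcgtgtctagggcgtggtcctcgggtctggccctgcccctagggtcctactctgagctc
The Flt1 and Eng stretches hold 2 matches each and those of Tek, Cldn5 and Sh2d3c hold 0. RefSeq promoters of 300 bases (250 before and 50 after the start) were matched for 18 of the 33 members, 24 promoters in all. AGGAAG occurred on either strand in 14 of the 24 (58.3%), and in 35.4% of 32851 mouse promoters of the same length. CGGAAG occurred in 8.33% of member promoters and 16.9% of all. Of letters bound by SOX factors, the family of Sox17 and Sox18, ACAAAG occurred in 20.8% of member promoters and 18.7% of all, and ACAATG in 4.17% and 12.6%. A match is a run of letters, not a site shown to be bound.

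Across the 23 libraries the members were high or low together. Of 528 pairs of members, 520 had a positive Pearson r of log2 CPM, 459 had r over 0.5, and the median was 0.81. The highest was 0.995, between Cdh5 (VE-cadherin, the adhesion protein of endothelial junctions) and Flt1. These correlations describe 23 libraries that differ in depth, and they carry no test. Pecam1, the platelet-endothelial adhesion molecule, followed the mean of the other members most closely (r = 0.991), with Tie1, an orphan receptor of the angiopoietin pathway, at 0.980 and Robo4, an endothelial roundabout receptor, at 0.968. Ramp2, which pairs with Calcrl to form the adrenomedullin receptor, followed it least (r = 0.199, 0.591 among the 17 numbered libraries and -0.142 among the 6 Astro-named ones). Ocln (occludin) stood at 0.509 and Slco2a1 at 0.597. Some members followed summed markers of other cells more closely than the other members. Fli1 had r = 0.865 with lymphocyte and neutrophil markers and 0.840 with microglia and macrophage markers, beside 0.759 with the other members. Sh2d3c had r = 0.880 with mural cell markers, beside 0.740.

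The members also spread unequally between libraries. The highest library held 6.69 times the CPM of the lowest for Kdr, the main signalling receptor of VEGFA, 6.44 times for Itm2a and 6.29 times for Tek. For Sh2d3c the same ratio was 2.65, the smallest of the 33.

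Outside the members, the 10 genes most like them over 23 libraries by Pearson r of log2 CPM with the members' mean were Acvrl1 (0.983), Adgrl4 (0.981), Abcb1a (0.974), Slc52a3 (0.969), Dennd3 (0.968), Adgrf5 (0.965), Arhgef15 (0.962), Slc35f2 (0.958), Sema3c (0.956) and Flt4 (0.955). Acvrl1, Adgrl4, Adgrf5 and Flt4 stand on the list of further endothelial receptors and Abcb1a, the drug efflux pump of the barrier, on that of the blood-brain barrier.

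**Figure D2:**
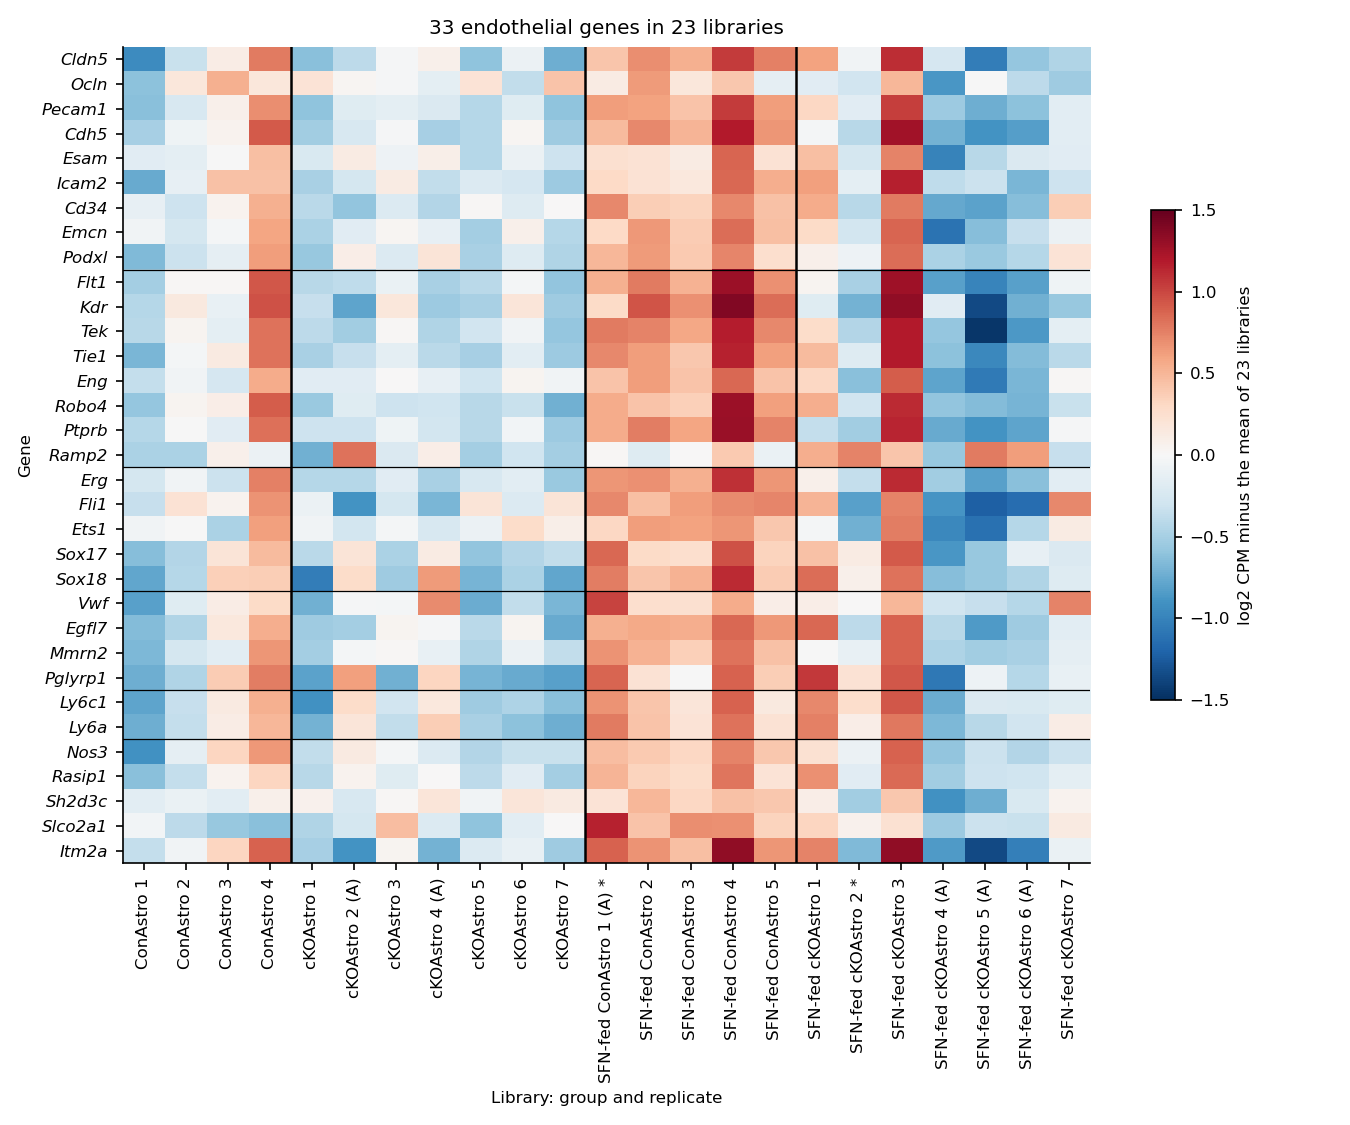
Heat map of 33 endothelial genes (rows, ordered by role) in 23 libraries (columns, ordered by group), as log2 CPM minus the gene's mean over the 23 libraries. Astro-named libraries carry (A) and the 2 libraries that go against their genotype labels an asterisk. Whole columns are high or low together, and SFN-fed ConAstro replicate 4 and SFN-fed cKOAstro replicate 3 are high in all 33 genes.

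Taking for each library the mean over the members of log2 CPM minus the gene's own mean gives 1 value per library. It was 0.56 ± 0.20 (SD, n = 5) in SFN-fed ConAstro, with a lowest value of 0.38. ConAstro libraries stood at -0.51, -0.17, 0.04 and 0.56. cKOAstro libraries lay between -0.45 and -0.11. SFN-fed cKOAstro libraries were the most spread, from -0.66 to 0.90 with an SD of 0.58 (n = 7). The 5 SFN-fed ConAstro libraries were all above every cKOAstro library, and overlapped those of ConAstro and of SFN-fed cKOAstro. SFN-fed ConAstro replicates 1 and 4 and SFN-fed cKOAstro replicate 3 each had all 33 members above the gene's mean, while ConAstro replicate 1 and SFN-fed cKOAstro replicate 4 had 0. Without the 2 libraries against their labels, SFN-fed ConAstro stood at 0.56 ± 0.24 (SD, n = 4) and SFN-fed cKOAstro at -0.11 ± 0.63 (SD, n = 6).

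Name prefixes ran along with part of this spread only. The 4 ConAstro libraries all have prefix 143 and still lay between -0.51 and 0.56. In SFN-fed cKOAstro the 3 Astro-named libraries lay between -0.66 and -0.51, the 3 with prefix 143 between -0.23 and 0.36, and the 1 with prefix 147 at 0.90. The 2 SFN-fed ConAstro libraries with prefix 147 lay between 0.45 and 0.91, and the 1 Astro-named library of that group at 0.56. In cKOAstro the 3 libraries with prefix 141 lay between -0.45 and -0.38, below the 2 with prefix 146 and the 2 Astro-named ones (-0.18 to -0.11). The part of the prefixes in the group differences was tested only in the fits named below.

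The effect of SFN in mice with intact Aldh7a1 was asked by comparing SFN-fed ConAstro with ConAstro. All 33 members had a higher mean level in SFN-fed ConAstro, with a median log2 difference of 0.55, whereas 48.4% of the 16509 genes tested were higher and their median was -0.01. By edgeR's quasi-likelihood test 0 of 33 members and 0% of all genes passed a Benjamini-Hochberg adjusted p of 0.05. At an unadjusted p under 0.05, 19 of 33 members were higher and 0 lower, against 3.54% of all genes higher. DESeq2 called 2 members (Sh2d3c and Slco2a1) among 23 genes. With limma-voom and its sample quality weights, 0 members and 0 genes were called.

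Cldn5 stood at 31.6, 48.2, 65.2 and 104 CPM in the ConAstro libraries. In SFN-fed ConAstro it stood at 80.6, 98.0, 87.3, 125 and 102 CPM, so only ConAstro replicate 4 reached into that range. The log2 difference of Cldn5 was 0.66 ± 0.29 (SE; edgeR adjusted p = 0.764). Pecam1 stood at 21.2, 27.7, 34.6 and 53.4 CPM in ConAstro and at 50.7, 49.8, 44.1, 67.8 and 50.6 CPM in SFN-fed ConAstro, a log2 difference of 0.61 ± 0.24 (edgeR adjusted p = 0.762). Again ConAstro replicate 4 overlapped the other group. Cdh5 held 17.5, 23.7, 25.8 and 47.0 CPM in ConAstro against 34.5, 41.0, 35.2, 56.5 and 39.1 CPM in SFN-fed ConAstro, a log2 difference of 0.53 ± 0.26 (edgeR adjusted p = 0.777).

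Among the receptors, Flt1 held 61.4, 88.6, 88.6 and 167 CPM in ConAstro and 126, 150.4, 125, 212 and 141 CPM in SFN-fed ConAstro (log2 difference 0.57 ± 0.27, edgeR adjusted p = 0.769). Tek held 18.9, 25.9, 22.9 and 44.3 CPM in ConAstro and 43.3, 42.4, 37.6, 57.2 and 41.7 CPM in SFN-fed ConAstro (log2 difference 0.66 ± 0.23, edgeR adjusted p = 0.762). In both genes 3 of 4 ConAstro libraries lay below all 5 SFN-fed ones. Eng had the third lowest p of the members, with a log2 difference of 0.54 ± 0.18 (edgeR adjusted p = 0.762). It was at 42.9, 53.1, 46.2 and 81.0 CPM in ConAstro and at 74.0, 84.8, 73.6, 100.2 and 73.8 CPM in SFN-fed ConAstro, with replicate 4 of ConAstro inside the SFN-fed range.

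The 2 members with the lowest p were Sh2d3c and Slco2a1. Sh2d3c held 12.5, 13.1, 12.5 and 14.8 CPM in ConAstro and 16.1, 19.7, 17.4, 19.03 and 18.5 CPM in SFN-fed ConAstro. The groups did not overlap, and the log2 difference was 0.45 ± 0.08 (edgeR adjusted p = 0.732). Slco2a1 held 0.671, 0.529, 0.466 and 0.447 CPM in ConAstro and 1.54, 0.935, 1.13, 1.11 and 0.870 CPM in SFN-fed ConAstro. Its groups did not overlap either, with a log2 difference of 1.07 ± 0.22 (edgeR adjusted p = 0.762). Sox18, a transcription factor of endothelial development, was the remaining member without overlap, at 4.94, 6.30, 10.9 and 10.96 CPM in ConAstro and 14.4, 11.3, 12.1, 18.4 and 11.1 CPM in SFN-fed ConAstro, where the closest libraries differ by under 1 CPM. These 3 of 33 compare with 1.01% of all genes that were higher without overlap.

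**Figure D3:**
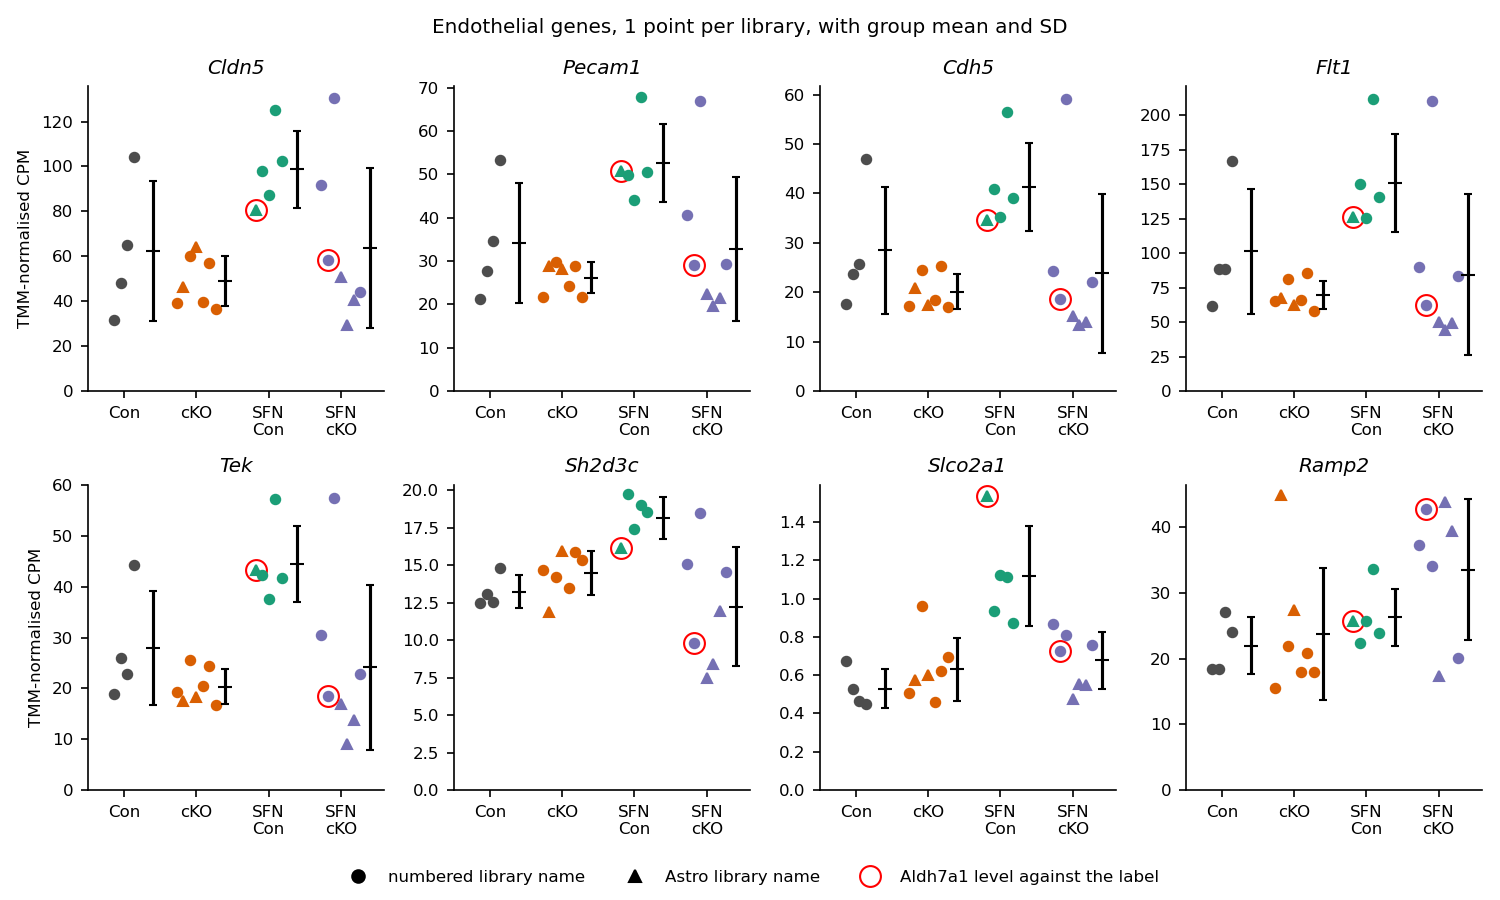
CPM of 8 endothelial genes in each library, by group, with the group mean and SD. Circles are numbered and triangles Astro-named libraries, and red rings mark the 2 libraries that go against their genotype labels. SFN-fed ConAstro libraries lie above all ConAstro libraries for Sh2d3c and Slco2a1, and SFN-fed cKOAstro replicate 3 stands at the top of its group for Cldn5, Pecam1, Cdh5, Flt1, Tek and Sh2d3c.

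By role, the 5 transcription factors were all higher at an unadjusted p under 0.05, with log2 differences from 0.45 to 0.69 and a median of 0.59. Erg, the ETS factor of endothelial identity, was at 0.64 ± 0.22. Of the 8 receptors, 3 were higher at that threshold and their median was 0.57. Of the 9 junction and adhesion genes, 4 were, with a median of 0.45. The 4 secreted proteins, with Vwf (von Willebrand factor of blood clotting) and Egfl7 among them, had a median of 0.57.

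The size of this difference moved with single ConAstro libraries. Without ConAstro replicate 1, the lowest, 5 members were higher at an unadjusted p under 0.05, beside 2.95% of all genes, and the median was 0.39. Without ConAstro replicate 4, the highest, 29 were, beside 4.46% of all genes, and the median was 0.79. Leaving out the 2 libraries against their labels, of which SFN-fed ConAstro replicate 1 belongs to this comparison, left 14 members and a median of 0.53. The share of all genes in that fit is not given here.

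Markers of the cells around vessels moved with the members, and those of several other cell types were mostly higher as well. All 12 markers of mural cells (pericytes and smooth muscle) were higher in SFN-fed ConAstro, with a median log2 difference of 0.35 and 4 of 12 at an unadjusted p under 0.05. Their summed level was 1276 to 1991 CPM in ConAstro and 1640 to 2591 CPM in SFN-fed ConAstro. All 8 fibroblast markers were higher (median 0.45, 7 of 8 at that threshold), with sums of 201 to 343 and 249 to 345 CPM. All 10 markers of microglia and macrophages (median 0.22), 5 of 5 of oligodendrocyte precursors (0.12) and 7 of 8 of neurons (0.22) were higher too. Of these, 0 had an unadjusted p under 0.05. Oligodendrocyte markers were higher in 6 of 8 (median 0.05). The 10 astrocyte markers had a median of -0.05 and sums of 18742 to 23508 and 18153 to 25307 CPM. Of markers of mural cells, fibroblasts and microglia, 0 were at 0 counts in any library. Their part in the result was not tested.

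Genotype on the SFN diet was compared between SFN-fed cKOAstro and SFN-fed ConAstro, a comparison that shares the SFN-fed ConAstro libraries with the one above. Here 32 of 33 members were lower in SFN-fed cKOAstro, with a median log2 difference of -0.60 beside 0.01 over the 16672 genes tested. By edgeR 0 of 33 members and 0% of genes passed the adjusted threshold, and the lowest adjusted p of a member was 0.195. At an unadjusted p under 0.05, 16 members were lower and 0 higher, against 8.89% of all genes lower. DESeq2 called 1 member, Slco2a1, and 367 genes in all. The weighted limma-voom fit called 26 members among 4398 genes.

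Slco2a1 had the lowest p. In SFN-fed cKOAstro its lowest, median and highest libraries stood at 0.476, 0.726 and 0.868 CPM, all below the 5 SFN-fed ConAstro libraries. The log2 difference was -0.72 ± 0.20 (edgeR adjusted p = 0.195). It was the only member without overlap, as were 0.366% of all genes in this direction, and the closest libraries of the 2 groups, at 0.868 and 0.870 CPM, differ by less than their counting error. Ptprb, encoding the endothelial receptor phosphatase VE-PTP that acts on TIE2, held 119, 138, 122, 199 and 136 CPM in SFN-fed ConAstro and 43.6, 56.4 and 179 CPM (lowest, median, highest) in SFN-fed cKOAstro, a log2 difference of -0.95 ± 0.33 (edgeR adjusted p = 0.195). Sh2d3c held 7.46, 11.9 and 18.5 CPM in SFN-fed cKOAstro (log2 difference -0.57 ± 0.20, edgeR adjusted p = 0.195).

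In SFN-fed cKOAstro the lowest, median and highest libraries of Cldn5 held 29.5, 50.8 and 131 CPM. Those of Pecam1 held 19.7, 29.2 and 67.1 CPM, and those of Cdh5 13.3, 18.6 and 59.2 CPM. Flt1 held 44.0, 62.4 and 211 CPM and Tek 9.15, 18.5 and 57.6 CPM. In each of these genes the highest library was SFN-fed cKOAstro replicate 3, which lay within or above the SFN-fed ConAstro range. The log2 differences were -0.63 ± 0.31 for Cldn5, -0.68 ± 0.27 for Pecam1, -0.80 ± 0.34 for Cdh5, -0.84 ± 0.35 for Flt1 and -0.88 ± 0.36 for Tek, with edgeR adjusted p between 0.210 (Pecam1) and 0.265 (Cldn5).

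By edgeR the calls turned on that 1 library, whereas DESeq2 and limma-voom called members with it included. Among libraries left out 1 at a time it moved the number called most. It was therefore singled out by its outcome. Without SFN-fed cKOAstro replicate 3, edgeR called 14 of 33 members lower at an adjusted p under 0.05, beside 2.22% of all genes called lower, and 28 of 33 at an unadjusted p under 0.05 beside 13.2%. The median became -0.78. The 14 were Ptprb, Erg, Mmrn2, Cdh5, Kdr, Flt1, Pecam1, Nos3, Tek, Podxl, Ets1, Tie1, Eng and Emcn, with adjusted p between 0.0203 and 0.0493. The log2 differences were then -1.44 ± 0.22 for Kdr, -1.34 ± 0.18 for Ptprb and -1.11 ± 0.17 for Erg. They cover receptors, junction genes and the transcription factors Erg and Ets1 alike, as well as Nos3, the endothelial nitric oxide synthase. Replicate 3 is the only SFN-fed cKOAstro library with prefix 147. Its member mean of 0.90 lay within the 0.45 to 0.91 of the 2 SFN-fed ConAstro libraries with that prefix. Without it the groups share Astro-named libraries alone, 3 against 1 that goes against its label. In these calls prefix and genotype can therefore hardly be told apart.

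The comparison depended on other libraries too. Without the 2 libraries against their labels 5 members were lower at an unadjusted p under 0.05 and 0 passed the adjusted threshold, with a median of -0.57. Among numbered libraries alone the median was -0.33 and 0 members passed either threshold. With the name prefix as a covariate 7 members were lower at an unadjusted p under 0.05 and the median was -0.55. The prefixes shared by these groups are 147 (1 against 2 libraries) and Astro (3 against 1, the 1 being against its label). Shares of all genes at the unadjusted threshold are not given for these alternatives, so the member counts are not read against them.

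Ramp2 was the single member with a higher mean in SFN-fed cKOAstro. Its 7 libraries stood at 37.2, 42.7, 34.1, 17.3, 43.8, 39.5 and 20.1 CPM, and the SFN-fed ConAstro libraries at 25.8, 22.3, 25.7, 33.6 and 23.9 CPM. Of the 7, 5 lay above all SFN-fed ConAstro libraries and the others below all of them, for a log2 difference of 0.35 ± 0.22 (edgeR adjusted p = 0.376). Calcrl, its partner in the adrenomedullin receptor, was lower at -0.73 ± 0.27.

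By role, the receptors had the lowest median of the larger groups at -0.78, with 5 of 8 lower at an unadjusted p under 0.05. The transcription factors had a median of -0.71 (2 of 5), the junction and adhesion genes -0.52 (5 of 9), the secreted proteins -0.47 (1 of 4) and the Ly6 proteins -0.34 (0 of 2). Of the remaining 5 genes 3 were lower at that threshold, with a median of -0.57.

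Mural cell markers were lower as well (11 of 12, median -0.49, 7 at an unadjusted p under 0.05), with summed levels of 917 to 2286 CPM in SFN-fed cKOAstro against 1640 to 2591 CPM. All 8 fibroblast markers were lower (median -0.69, 6 of 8 at that threshold), summing to 101 to 312 CPM. All 10 markers of microglia and macrophages were lower with a median of -0.54, 0 of them at that threshold, and sums of 322 to 2936 CPM against 873 to 2529. Oligodendrocyte markers were higher in 7 of 8 with a median of 0.28, summing to 24092 to 56204 CPM against 21668 to 30399. Astrocyte markers had a median of -0.01. The part of these in the result was not tested.

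On the control diet, cKOAstro and ConAstro were compared for the effect of Aldh7a1 deletion. The members were lower in cKOAstro in 30 of 33 cases, with a median log2 difference of -0.31 beside -0.01 over 17406 genes. By edgeR 0 of 33 members were called beside 0.023% of all genes, and member adjusted p values lay between 0.981 and 0.982. At an unadjusted p under 0.05, 7 members were lower and 0 higher, against 2.03% of all genes lower. DESeq2 called 0 members among 8 genes and limma-voom 0 members among 4 genes.

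Itm2a had the lowest p. It held 36.4, 45.0, 58.2 and 86.3 CPM in ConAstro and 25.1, 33.03 and 48.1 CPM (lowest, median, highest) in cKOAstro. The groups overlapped, and the log2 difference was -0.66 ± 0.22 (edgeR adjusted p = 0.981). Robo4 held 7.45, 11.5, 12.02 and 20.97 CPM in ConAstro and 6.76, 8.84 and 9.85 CPM in cKOAstro (log2 difference -0.62 ± 0.21, edgeR adjusted p = 0.981). Flt1 held 57.8, 66.1 and 85.4 CPM in cKOAstro (log2 difference -0.55 ± 0.21, edgeR adjusted p = 0.981). In each of the 3 genes, ConAstro replicate 1 lay within the cKOAstro range, and for Itm2a ConAstro replicate 2 did as well.

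The other named genes were closer to the spread. Cldn5 held 36.3, 46.1 and 64.0 CPM in cKOAstro, a log2 difference of -0.35 ± 0.27 with an unadjusted p over 0.05. Pecam1 held 21.6, 28.1 and 29.7 CPM (-0.39 ± 0.20 on the log2 scale, also over that threshold). Cdh5 held 17.1, 18.4 and 25.3 CPM (log2 difference -0.51 ± 0.22) and Tek 16.8, 19.2 and 25.6 CPM (log2 difference -0.46 ± 0.20), both under it. Of the members 0 had groups without overlap, beside 0.207% of all genes lower without overlap. Sh2d3c, Slco2a1 and Ramp2 were the 3 members with a higher mean in cKOAstro, by 0.12 ± 0.09, 0.25 ± 0.23 and 0.11 ± 0.26.

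Again a ConAstro library set the size. Without ConAstro replicate 4, 0 members passed an unadjusted p under 0.05, beside 1.6% of all genes lower, and the median was -0.05. Without ConAstro replicate 1, 14 were lower, beside 2.46% of all genes, and the median was -0.42. Without cKOAstro replicate 2, the library with Xist, 4 members were lower and 1 higher at that threshold, beside 1.93% and 1.79% of all genes, with a median of -0.32. Mural cell markers went the other way here, with 11 of 12 higher in cKOAstro and a median of 0.20, summing to 1598 to 2261 CPM. So did fibroblast markers, with 7 of 8 higher (median 0.14, 1 at an unadjusted p under 0.05). All 10 markers of microglia and macrophages were lower, as the members were (median -0.24, 0 at an unadjusted p under 0.05), with sums of 395 to 2450 CPM in cKOAstro and 1236 to 1839 CPM in ConAstro. All 8 neuron markers were higher (median 0.33, 0 at that threshold), with sums of 456 to 1031 and 305 to 741 CPM. The part of these in the result was not tested.

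**Figure D4:**
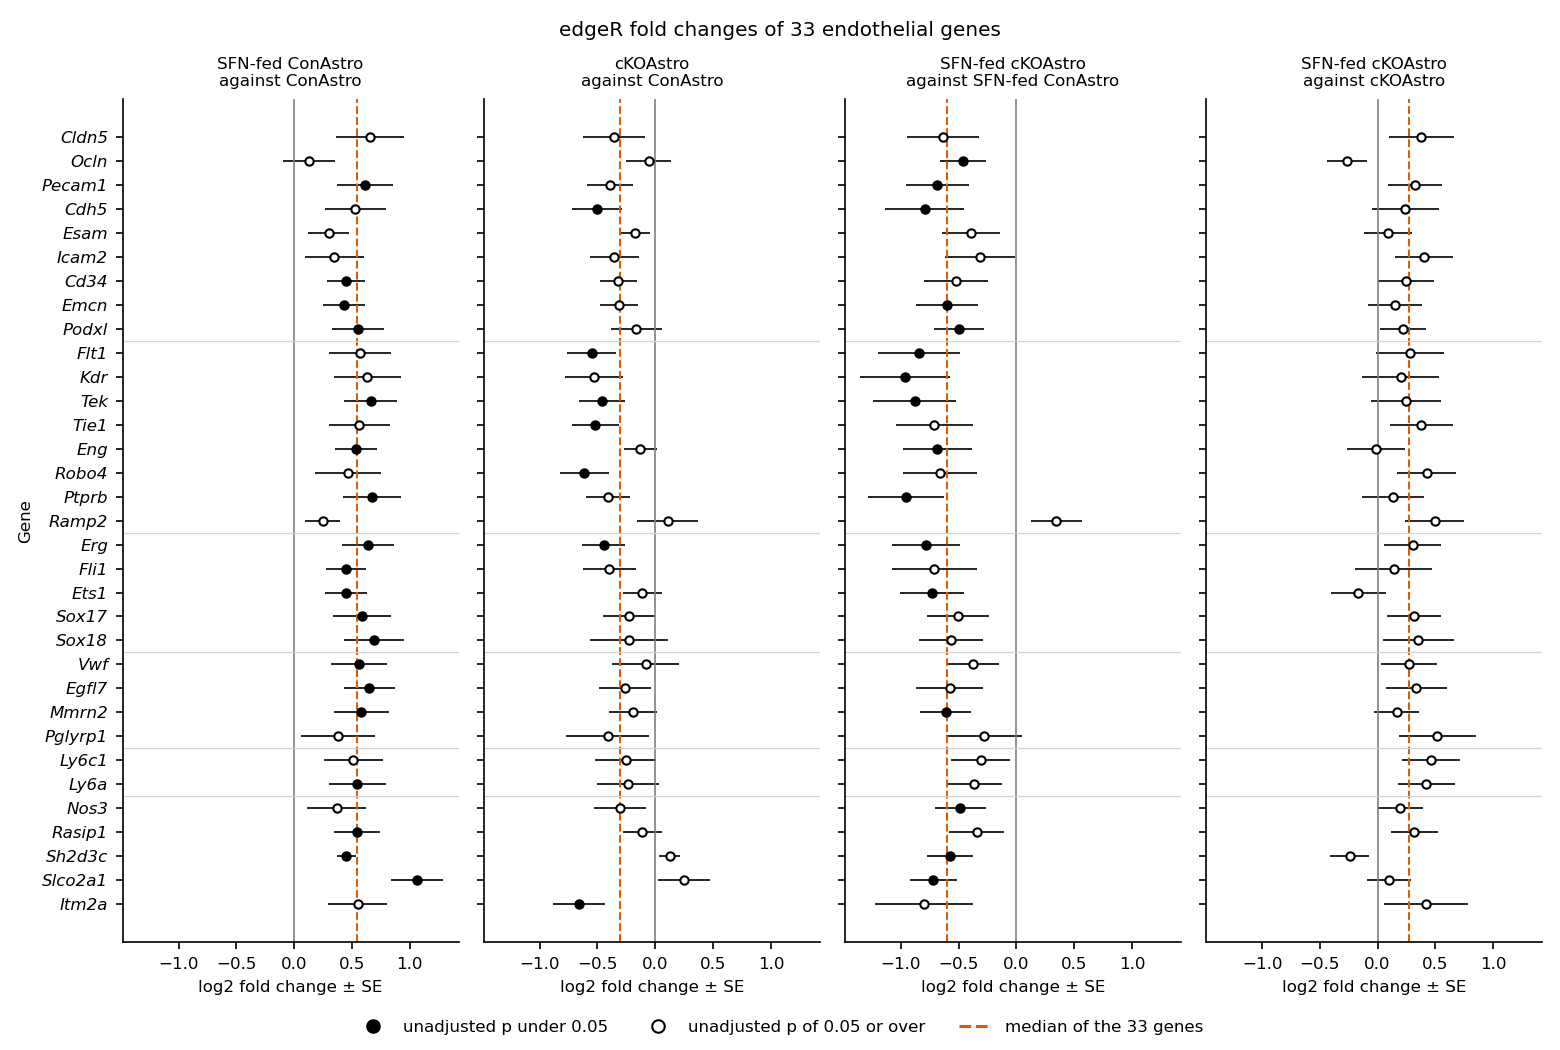
Log2 difference with SE of each endothelial gene in 4 comparisons of 2 groups, with filled points at an unadjusted edgeR p under 0.05 and a dashed line at the member median. SFN-fed ConAstro against ConAstro has all 33 points above 0 (median 0.55) and SFN-fed cKOAstro against SFN-fed ConAstro has 32 of 33 below 0 (median -0.60).

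SFN in the deletion mice was read from SFN-fed cKOAstro against cKOAstro, which share libraries with the comparisons above. Here 29 of 33 members were higher in SFN-fed cKOAstro with a median log2 difference of 0.27. By edgeR 0 members and 0% of 16903 genes were called, and 0 members passed an unadjusted p under 0.05, beside 5.38% of genes higher and 5.5% lower. DESeq2 called 0 members among 11 genes and limma-voom 0 members among 0 genes. Ramp2 had the lowest p (0.49 ± 0.26 on the log2 scale, edgeR adjusted p = 0.482), followed by Ly6c1 at 0.46 ± 0.25 and Ly6a at 0.42 ± 0.25. Cldn5 differed by 0.38 ± 0.28, Pecam1 by 0.32 ± 0.23, Cdh5 by 0.24 ± 0.29, Flt1 by 0.28 ± 0.29 and Tek by 0.25 ± 0.31, with edgeR adjusted p from 0.580 to 0.775.

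The sign of this comparison changed with the model. Among numbered libraries alone 19 members were higher at an unadjusted p under 0.05 and the median was 0.62, but there the prefixes of cKOAstro (141 and 146) and of SFN-fed cKOAstro (143 and 147) are not shared, so prefix and diet cannot be told apart. With the name prefix as a covariate 18 were lower and the median was -0.43. The groups share the Astro prefix alone, so that difference comes from 3 SFN-fed against 2 control-diet Astro-named libraries, and 1 of the 2 is cKOAstro replicate 2, the library with Xist. With no covariate, leaving out SFN-fed cKOAstro replicate 3 brought the median from 0.27 to 0.04. Ramp2 turned as well, to a log2 difference of -0.11 with the prefix as a covariate. Shares of all genes at an unadjusted p under 0.05 are not given for the numbered libraries alone or the prefix model. Their member counts are therefore not read as particular to the members.

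SFN-fed cKOAstro against ConAstro asks whether the deletion mice on SFN differ from untreated controls. Of the members 13 were higher and 20 lower, with a median log2 difference of -0.10. By edgeR 0 members and 0% of 16753 genes were called. Ramp2 alone passed an unadjusted p under 0.05 (log2 difference 0.59 ± 0.25, edgeR adjusted p = 0.557), beside 4.01% of all genes higher at that threshold. DESeq2 called 0 members among 8 genes and limma-voom called Ramp2 among 656 genes. ConAstro held 18.4, 18.3, 27.0 and 24.1 CPM of Ramp2, and 5 of 7 SFN-fed cKOAstro libraries lay above all of them. The log2 differences were 0.02 ± 0.41 for Cldn5, -0.07 ± 0.35 for Pecam1, -0.27 ± 0.41 for Cdh5, -0.28 ± 0.42 for Flt1 and -0.23 ± 0.43 for Tek, so their SEs were as large as the differences or larger. The sign of the member median turned to 0.23 among numbered libraries alone and to 0.17 without ConAstro replicate 4.

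Whether SFN acted differently in the genotypes was tested as the interaction of genotype and diet over all 23 libraries. By edgeR 0 members and 0% of 17302 genes were called. Only 2 members had an unadjusted p under 0.05, both lower, beside 2.96% of all genes. Slco2a1 had an interaction of -0.97 ± 0.30 on the log2 scale and Sh2d3c -0.70 ± 0.24, each with an edgeR adjusted p of 0.673. DESeq2 and limma-voom called 0 members. For the others the interval of the interaction stayed wide, as for Cldn5 at -0.28 ± 0.45, Pecam1 at -0.30 ± 0.37, Cdh5 at -0.29 ± 0.44, Flt1 at -0.29 ± 0.45 and Tek at -0.42 ± 0.45. The member median of -0.29 turned to 0.07 among numbered libraries alone.

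Since library names divide the samples, the 6 Astro-named libraries were set against the 17 numbered ones with the groups as covariates. Of the members 27 were lower in the Astro-named libraries, with a median log2 difference of -0.37. By edgeR 1 of 33 was called, Fli1, an ETS transcription factor, at -0.85 ± 0.22 (adjusted p = 0.0321), beside 5.91% of all genes called. At an unadjusted p under 0.05, 13 members were lower beside 12.7% of all genes. Fli1 held 3.65 to 4.62 CPM in the 3 Astro-named SFN-fed cKOAstro libraries and 12.1 to 14.3 in 3 of the 4 numbered ones, the library against its label being the remaining one at 4.83. In cKOAstro the 2 Astro-named libraries held 4.60 and 5.31 CPM and the 5 numbered ones 7.11 to 9.78. Astro-named SFN-fed ConAstro replicate 1, also against its label, held 14.1 CPM, as high as the numbered libraries of its group. Without the 2 libraries against their labels 7 of 33 members were called among 2992 genes, namely Fli1, Itm2a, Cd34, Ets1, Sh2d3c, Tek and Eng. The main fit tested 17302 genes, so calls were common among all genes too and are not read as particular to the members. Without cKOAstro replicate 2, 0 members and 0 genes were called. All 10 markers of microglia and macrophages were lower as well, with a median of -1.45 and 9 of them at an unadjusted p under 0.05, and their part was not tested. Over the 23 libraries Fli1 followed their summed level (r = 0.840) more closely than the mean of the other members (r = 0.759).

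**Figure D5:**
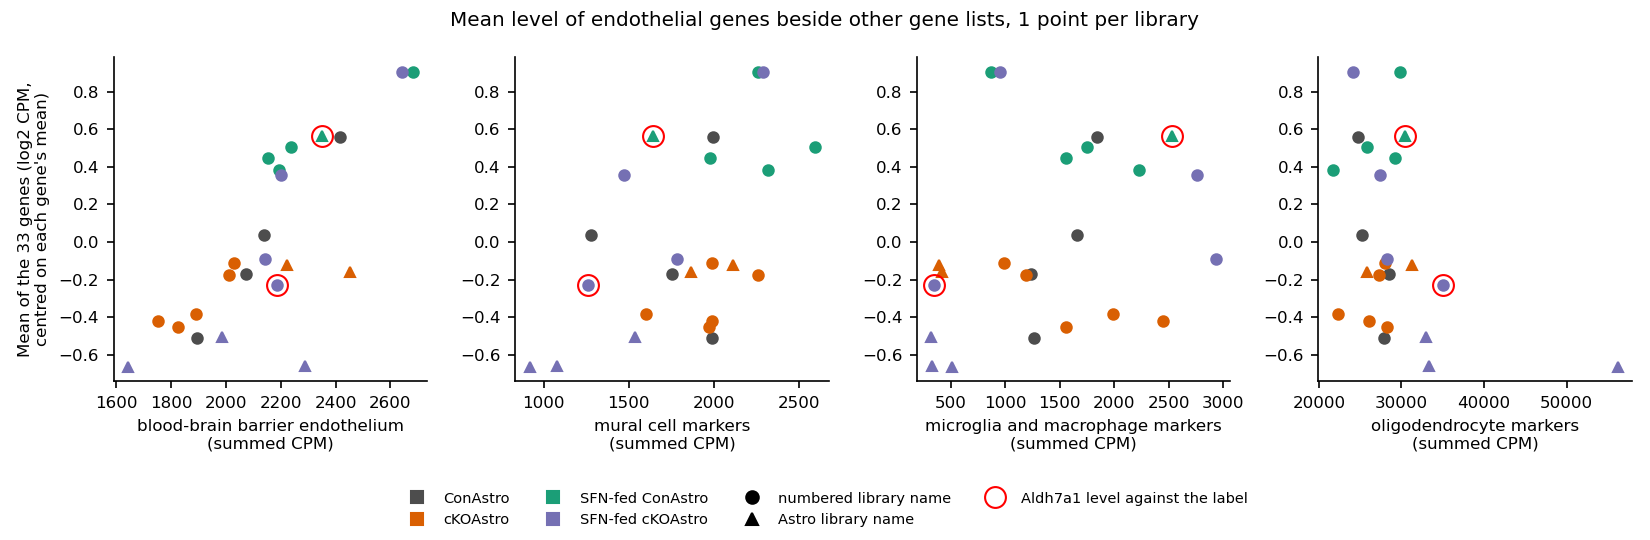
Mean over the endothelial genes of centred log2 CPM (vertical axis) against the summed CPM of 4 marker lists (horizontal axes), 1 point per library and 23 in each panel, coloured by group. The members follow the blood-brain barrier list (r = 0.77) more than mural cell markers (r = 0.53), microglia markers (r = 0.38) or oligodendrocyte markers (r = -0.41). Slc2a1 and Slco1c1 are the most abundant genes in the sum of the barrier list, and which cells their RNA came from was not tested.

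Other genes known from vessels were followed on lists of 20 barrier genes and 22 receptors and co-receptors. Which cells their RNA came from in these libraries was not tested. In SFN-fed ConAstro against ConAstro, 17 of 20 barrier genes were higher with a median log2 difference of 0.20, 5 of them at an unadjusted p under 0.05, among which Foxq1 (a forkhead factor) at 1.04 ± 0.27 and the organic anion transporter Slco1a4 at 0.69 ± 0.24. Of the receptors 20 of 22 were higher (median 0.21, 9 at that threshold), with Calcrl at 0.46 ± 0.13 and Nrp1, a VEGF co-receptor, at 0.30 ± 0.10. In SFN-fed cKOAstro against SFN-fed ConAstro, 16 of 20 barrier genes were lower (median -0.46, 7 lower and 1 higher at an unadjusted p under 0.05) and 22 of 22 receptors (median -0.42, 10 at that threshold). The 1 higher was Mfsd2a, the lipid transporter of the barrier, at 1.02 ± 0.37, a gene that ranged from 80.4 to 449 CPM. In cKOAstro against ConAstro, 19 of 20 barrier genes (median -0.14, 4 at that threshold) and 20 of 22 receptors (median -0.20, 3 at that threshold) were lower. By edgeR 0 genes of these lists were called in these 3 comparisons.

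Over the 23 libraries the member mean followed the summed level of barrier genes with Pearson r = 0.77 (0.92 over the 17 numbered libraries). For venous genes r was 0.71, for receptors 0.71, for ligands of endothelial receptors 0.68 and for arterial genes 0.66. A sum is carried mostly by the abundant genes of its list. The most abundant, by median CPM, were Slc2a1 (barrier, 476), Vcam1 (venous, 265), S1pr1 (receptors, 1466), Vegfa (ligands, 384) and Hey1 (arterial, 62.2). All but Hey1 stood above Flt1, the member with the highest median (83.5 CPM). Which cells this RNA came from was not tested, so the sums are not read as levels of vessel RNA. The member mean followed fibroblast markers with 0.56, mural cell markers with 0.53 and astrocyte markers with 0.47. For microglia markers r was 0.38, and -0.03 over the numbered libraries. All these values come from the same libraries and depths and are descriptions.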

How the data were processed

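RNA of MACS-isolated cortical astrocytes was sequenced in 23 libraries. After FastQC the authors used STAR with mouse build mm10, and deposited raw read counts by gene symbol without normalisation. The gene annotation and strand setting of the counting are not given in the sources used here. By the study's methods n for RNA-seq counts animals, so libraries were taken as separate mice.

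The 33 members, the 14 lists of other genes (152 genes) and the alternatives were chosen with earlier results of these data known. Groups were taken from the sample titles. Counts were tested in R 4.3.3 with edgeR 4.0.16 (quasi-likelihood, TMM, filterByExpr with a minimum count of 10 and total of 15), each comparison on its own groups and the interaction on all 4, two-sided, with Benjamini-Hochberg adjustment over all genes tested and a threshold of 0.05. Library size is given as total count, and depths of this size leave spread between libraries as the main error for all members but Slco2a1. CPM are TMM-normalised, log2 CPM carry a prior count of 2, and SEs were derived from the log2 difference and the moderated F statistic. Named with fold changes were Cldn5, Pecam1, Cdh5, Flt1 and Tek in every comparison, and members past the threshold or else the 3 with the lowest p. Further genes were chosen after their values were seen: Sox18, Ptprb, Eng, Kdr, Erg and those named from the lists. The closest pair of libraries of a group had a chi-square per degree of freedom of 42.4, so each library counted as 1 replicate. Same-numbered libraries of compared groups had correlations of their deviations from the group means between -0.21 and 0.34, so numbers were not read as pairs. Alternatives were DESeq2 1.42.0, limma 3.58.1 (voom with sample quality weights), RLE normalisation, no filter, all groups in 1 fit, a replicate block, library name covariates, numbered libraries only, and leaving out libraries. The name prefix as a covariate was added after seeing the data. The test was checked on simulated counts, with genes drawn independently at a fixed dispersion and without library effects. That check does not measure power or error for genes that move together as the members did. Sequences are RefSeq's (GRCm38.p6). Columns of per-sample values without a sample numbered 0. Protein sequences were not used here.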

Additional observations from a re-analysis of the deposited data

Results flagged for a closer look

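Of 136 levels of an endothelial gene, or of their sum, in a group, 17 had 1 library far from the others by Dixon's test. Chance gives about 1 in 20 for a single level. The members moved together across libraries, so these levels are not independent and the 17 are not read against that rate. Of these, 8 were in SFN-fed cKOAstro replicate 3. It held 59.2 CPM of Cdh5 (other libraries of the group 13.3 to 24.4), 98.4 of Podxl (37.3 to 63.4), 211 of Flt1 (44.0 to 90.2), 65.5 of Kdr (10.2 to 23.1), 179 of Ptprb (43.6 to 79.9), 14.8 of Erg (3.87 to 7.21), 18.3 of Mmrn2 (6.87 to 9.86) and 45.5 of Nos3 (16.4 to 28.9).

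SFN-fed ConAstro replicate 4 stood above its group in 7 levels, those of 6 genes and of the sum. It held 67.8 CPM of Pecam1 (others 44.1 to 50.7), 62.4 of Esam (36.9 to 40.1), 212 of Flt1 (125 to 150.4), 27.3 of Robo4 (14.3 to 17.1), 199 of Ptprb (119 to 138) and 14.6 of Erg (9.87 to 10.9). Its summed level of the 33 genes was 1766 CPM, beside 1184 to 1327 in the other 4.

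In cKOAstro, replicate 2 held 44.9 CPM of Ramp2 (others 15.5 to 27.3), and replicate 4 held 70.9 CPM of Vwf (26.0 to 43.0). Both are Astro-named libraries.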

How the results depend on the processing

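Values are given where an alternative moved a count of members or genes by over 1.5 times or turned a sign. The cause was not tested. Numbers of members at an unadjusted p under 0.05 are called nominal here, and numbers past the adjusted threshold called. Shares of all genes at the unadjusted threshold are not given in this section. Nominal counts are therefore not read as particular to the members.

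With DESeq2, called genes were 8 in cKOAstro against ConAstro, 367 (1 member) in SFN-fed cKOAstro against SFN-fed ConAstro, 23 (2 members) in SFN-fed ConAstro against ConAstro, 11 in SFN-fed cKOAstro against cKOAstro, 8 in SFN-fed cKOAstro against ConAstro, 3 for the interaction and 2121 (4 members) between library names. With limma-voom, nominal members were 2 in cKOAstro against ConAstro, 31 in SFN-fed cKOAstro against SFN-fed ConAstro (26 members and 4398 genes called), 5 in SFN-fed cKOAstro against cKOAstro, 4 in SFN-fed cKOAstro against ConAstro (1 member and 656 genes called) and 15 for the interaction, and 4 members and 2772 genes were called between library names. Signs turned for Cdh5 (-0.17), Flt1 (-0.13) and Tek (-0.27) in SFN-fed cKOAstro against cKOAstro and for Cldn5 (-0.17) in SFN-fed cKOAstro against ConAstro. With all 4 groups in 1 fit, nominal members were 0 in cKOAstro against ConAstro (0 genes called), 8 in SFN-fed ConAstro against ConAstro and 1 in SFN-fed cKOAstro against cKOAstro, and 3 genes were called in SFN-fed cKOAstro against SFN-fed ConAstro.

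With the name prefix as a covariate, nominal members were 7 in SFN-fed cKOAstro against SFN-fed ConAstro and 18 in SFN-fed cKOAstro against cKOAstro, where the median was -0.43 and signs turned for Cldn5 (-0.45), Pecam1 (-0.43), Cdh5 (-0.44), Flt1 (-0.44), Tek (-0.43), Ramp2 (-0.11), Ly6c1 (-0.59) and Ly6a (-0.73). With Astro-named against numbered as a covariate, signs turned in SFN-fed cKOAstro against ConAstro for Pecam1 (0.26), Cdh5 (0.11), Flt1 (0.12) and Tek (0.19). Among numbered libraries alone, nominal members were 0 in SFN-fed cKOAstro against SFN-fed ConAstro, 19 in SFN-fed cKOAstro against cKOAstro and 2 in SFN-fed cKOAstro against ConAstro. Signs turned there in the last for Pecam1 (0.26), Cdh5 (0.10), Flt1 (0.12) and Tek (0.19), and in the interaction for Cldn5 (0.0605) and Pecam1 (0.0654). Without the 2 libraries against their labels, nominal members were 5 (2 genes called) in SFN-fed cKOAstro against SFN-fed ConAstro and 0 (2 genes called) in SFN-fed cKOAstro against ConAstro, and 7 members and 2992 genes were called between library names.

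Replicate numbers did not pair the libraries: same-numbered libraries correlated at -0.21 to 0.34, and at most 1 library per comparison correlated best with its own number. With a replicate block, nominal members were 2 in cKOAstro against ConAstro (1 gene called) and 0 in SFN-fed cKOAstro against ConAstro, where Pecam1 (0.19) and Tek (0.0267) turned, and 0 members (Fli1 at -0.76) and 0 genes were called between library names. The block changed no other call.

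Leaving out 1 library at a time gave 0 to 14 nominal members in cKOAstro against ConAstro (2 to 4 genes called, Cldn5 from -0.57 to 0.0147), 5 to 28 in SFN-fed cKOAstro against SFN-fed ConAstro (0 to 14 members and 0 to 701 genes called), 5 to 29 in SFN-fed ConAstro against ConAstro (0 to 1 genes called), 0 to 3 in SFN-fed cKOAstro against cKOAstro, 0 to 5 in SFN-fed cKOAstro against ConAstro (0 to 2 genes called), 2 to 12 for the interaction and 6 to 16 between library names (0 to 5 members and 0 to 2235 genes called). In SFN-fed cKOAstro against cKOAstro, Cdh5 ranged from -0.15 to 0.34, Flt1 from -0.12 to 0.39 and Tek from -0.11 to 0.39. In SFN-fed cKOAstro against ConAstro, Cldn5 ranged from -0.25 to 0.39, Pecam1 from -0.34 to 0.23, Cdh5 from -0.67 to 0.0893, Flt1 from -0.68 to 0.0789 and Tek from -0.60 to 0.0944. Counting error bore most on Slco2a1, with 35 to 50 counts in ConAstro.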

Other observations

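Ligands that act on endothelial receptors did not all go with the endothelial genes. In SFN-fed ConAstro against ConAstro, 13 of 20 listed ligands were higher and 7 lower, with 2 higher and 3 lower at an unadjusted p under 0.05 and 0 called by edgeR. The 2 were Dll4, a Notch ligand made by endothelium (log2 difference 0.65 ± 0.21), and Tgfb1 (0.46 ± 0.15). The 3 were Vegfa (-0.25 ± 0.10), Adm, which encodes adrenomedullin (-0.72 ± 0.25), and Apln, which encodes apelin (-0.28 ± 0.12). Vegfa ranged from 302 to 505 CPM and Apln from 157 to 285 CPM over the 23 libraries, whereas Adm was at 0.714 to 2.54 CPM.

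Between Astro-named and numbered libraries 5 of the 20 ligands were called lower by edgeR, namely Wnt7a (-0.53 ± 0.13), Wnt7b (-0.38 ± 0.09), Ndp (-0.42 ± 0.11), Vegfc (-0.60 ± 0.17) and Tgfb1 (-1.01 ± 0.26). Wnt7a, Wnt7b and Ndp (norrin) are ligands of the beta-catenin pathway that maintains the barrier. In SFN-fed cKOAstro against SFN-fed ConAstro, 15 of 20 ligands were lower with a median of -0.20, 3 of them at an unadjusted p under 0.05 (Dll4, Jag1 and Tgfb2).

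Of the venous and arterial lists, the venous gene Selp was at 0 counts in 2 libraries. Of 5 red blood cell markers, 4 globin genes were at 0 counts in all 23 libraries. The remaining marker, Alas2, had counts in every library, at 0.501 to 18.5 CPM. The cause of the globin zeros was not tested, so they are not read as absence of blood RNA.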
